A study of Mus musculus with 106 samples.

Results

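The interferon receptors and the Jak kinases were read as 8 genes out of 21938 protein-coding genes: the 4 receptor chains Ifngr1, Ifngr2, Ifnar1 and Ifnar2, and the 4 kinases Jak1, Jak2, Jak3 and Tyk2. They were chosen by name. For each gene, the promoter (1 kb to either side of any annotated start site) and the gene locus (the gene body with 10 kb on each side) were read in 70 lists of enriched intervals from chromatin immunoprecipitation sequencing (ChIP-seq), in which an antibody pulls down the DNA that carries a histone mark. 35 lists were for H3K27ac, an acetylation found at promoters and enhancers in use, and 35 for H3K4me3, a methylation found at promoters in use. The cells came from C57BL/6J mice that were 12 to 14 weeks old when assigned to a control or a diabetic group. The diabetic group was given streptozotocin, a toxin of the insulin-secreting beta cells, at 42 to 45 mg/kg on each of 5 days. Tissue was collected 6 weeks later, and diabetic mice had blood glucose above 13.9 mmol/L. Bone marrow depleted of cells with CD3, CD4, B220, Ter119 or Gr1 is called HSC in the labels and is a mixture of immature cells. Bone marrow-derived macrophages (BMDM) were grown from marrow for 7 days in medium with 5 mmol/L glucose and L929 conditioned medium, and were left unstimulated or given 10 ng/mL IFN-γ with 100 ng/mL LPS for 16 h. The 16 h is from the study's general BMDM methods, and its ChIP-seq methods give no time. Each mark had 12 HSC lists, 11 unstimulated BMDM lists and 12 LPS+IFN-γ lists, with 6 per disease group except the 5 of unstimulated diabetic BMDM.

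IFN-γ binds Ifngr1 and signals with its partner Ifngr2, while type I interferons bind Ifnar2 and Ifnar1. The receptor chains have no kinase activity of their own. Ifngr1 carries Jak1 and Ifngr2 carries Jak2, Ifnar2 carries Jak1 and Ifnar1 carries Tyk2, and the paired kinases phosphorylate STAT proteins that enter the nucleus and bind GAS or ISRE sequences. Jak3 serves the receptors that share the common gamma chain (Il2rg). Macrophages respond to IFN-γ and LPS with an inflammatory state, and the BMDM of this study were given both.

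The sequences of the promoters that carry the receptor results are shown first, with the 300 bases around the typical summit of 3 regions that differed between HSC and BMDM. All 8 genes had an entry in the RefSeq promoter table (GRCm38.p6, 250 bases before and 50 bases after a start). Capitals mark a match to GAS, searched as TTCNNNGAA. ISRE and a PU.1 core, searched as GAGGAAGT, had no match in the 8 promoters. All motifs were searched on both strands. The first pair of sequences are the promoters of the IFN-γ receptor chains, Ifngr2 at chr16:91546809-91547108 and Ifngr1 at chr10:19591699-19591998, both on the + strand.
Ifngr2 promoter: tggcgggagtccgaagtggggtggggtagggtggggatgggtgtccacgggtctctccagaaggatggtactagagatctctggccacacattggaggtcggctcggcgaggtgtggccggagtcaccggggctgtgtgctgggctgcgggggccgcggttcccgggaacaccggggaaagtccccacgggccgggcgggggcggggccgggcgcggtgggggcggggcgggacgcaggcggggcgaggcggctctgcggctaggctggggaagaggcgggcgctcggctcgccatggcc
Ifngr1 promoter: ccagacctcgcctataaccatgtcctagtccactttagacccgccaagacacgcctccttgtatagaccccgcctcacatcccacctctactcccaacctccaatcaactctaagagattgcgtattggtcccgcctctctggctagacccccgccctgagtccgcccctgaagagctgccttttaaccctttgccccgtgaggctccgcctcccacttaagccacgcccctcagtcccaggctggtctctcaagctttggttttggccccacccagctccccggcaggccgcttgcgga
The Ifngr2 promoter window held 31 CG dinucleotides and the Ifngr1 window 14, against a median of 7 over 32851 promoters of the table. The type I receptor promoters are shown because they hold the GAS matches: Ifnar1 at chr16:91484965-91485264 and Ifnar2 at chr16:91372533-91372832, both on the + strand, hold 1 each.
Ifnar1 promoter: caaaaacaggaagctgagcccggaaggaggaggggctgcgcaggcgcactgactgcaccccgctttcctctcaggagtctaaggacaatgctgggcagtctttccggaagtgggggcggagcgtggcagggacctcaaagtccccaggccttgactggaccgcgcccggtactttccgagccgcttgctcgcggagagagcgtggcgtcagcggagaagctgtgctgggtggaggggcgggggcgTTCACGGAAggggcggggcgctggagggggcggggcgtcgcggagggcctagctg
Ifnar2 promoter: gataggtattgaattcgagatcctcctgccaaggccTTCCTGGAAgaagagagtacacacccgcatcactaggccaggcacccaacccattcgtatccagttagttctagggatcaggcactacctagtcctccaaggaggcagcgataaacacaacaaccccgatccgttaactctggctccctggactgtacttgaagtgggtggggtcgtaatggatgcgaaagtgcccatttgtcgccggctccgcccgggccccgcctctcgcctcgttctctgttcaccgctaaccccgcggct
Of all 32851 promoters 8.3% held a GAS match, 3.44% an ISRE match and 3.2% a PU.1 core match. The regions shown next are 842 bp of intergenic sequence 3′ of Ifngr1 (window chr10:19613030-19613329), 703 bp in an intron of Jak1 (window chr4:101182729-101183028) and 6114 bp in an intron of Ifngr2 (window chr16:91553821-91554120). They are written from the + strand of GRCm38.p6.
Ifngr1 3′ region: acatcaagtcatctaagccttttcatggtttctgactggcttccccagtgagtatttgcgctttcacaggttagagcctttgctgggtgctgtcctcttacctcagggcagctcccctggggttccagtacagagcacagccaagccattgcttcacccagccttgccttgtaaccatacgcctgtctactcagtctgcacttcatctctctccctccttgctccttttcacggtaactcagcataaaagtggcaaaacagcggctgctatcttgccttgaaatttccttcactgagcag
Jak1 intron region: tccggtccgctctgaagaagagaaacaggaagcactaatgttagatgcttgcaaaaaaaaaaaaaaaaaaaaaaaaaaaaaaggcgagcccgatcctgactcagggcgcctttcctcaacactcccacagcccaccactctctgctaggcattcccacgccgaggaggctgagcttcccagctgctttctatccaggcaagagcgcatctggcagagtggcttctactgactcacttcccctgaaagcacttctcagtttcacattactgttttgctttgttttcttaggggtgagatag
Ifngr2 intron region: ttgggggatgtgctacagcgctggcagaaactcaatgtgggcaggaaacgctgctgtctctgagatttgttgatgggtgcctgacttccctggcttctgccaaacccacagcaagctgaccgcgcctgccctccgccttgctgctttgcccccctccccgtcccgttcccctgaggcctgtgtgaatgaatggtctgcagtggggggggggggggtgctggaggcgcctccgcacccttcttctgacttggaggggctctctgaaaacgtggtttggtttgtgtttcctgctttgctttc
These windows held 4, 8 and 10 CG dinucleotides, respectively, against a median of 9 over the windows of all 44131 H3K27ac regions. No motif matched in them, nor in the windows of the other 17 H3K27ac regions of these loci that differed between HSC and unstimulated BMDM. In all H3K27ac regions GAS matched in 5.08%, ISRE in 1.83% and the PU.1 core in 1.79%.

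Each list gives its intervals with a −log10 p from the peak caller. The read depth behind a list is unknown, and its length ranged from 51162 to 176559 intervals for H3K27ac and from 13730 to 277213 for H3K4me3. For that reason only ranks inside a list were compared. A promoter percentile is the rank of a gene's best promoter interval among all ranked genes of its library (100 is the strongest, and genes without an interval tie at the bottom). A region percentile is the same for merged intervals. In H3K27ac, macrophage marker genes had a median list mean of 34.5 in unstimulated BMDM and 19.1 in HSC, and progenitor markers 33.7 and 47.2. Erythroid markers stood at 46.2 in HSC and 35.4 in unstimulated BMDM, T cell markers at 25.1 and 18.0, neutrophil markers at 23.6 and 19.7, B cell markers at 16.6 and 16.0, and megakaryocyte markers at 26.0 and 27.3. In H3K4me3 the macrophage and progenitor lists were less apart. Macrophage markers stood at 31.3 in unstimulated BMDM and 25.1 in HSC, progenitor markers at 52.5 and 54.3, and erythroid markers at 42.9 and 42.0. The part of any such cells in the results below was not tested. In bulk chromatin a change in the share of marked cells and a change of the mark within each cell cannot be told apart.

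3 control H3K27ac libraries did not match their labels. Regions that moved with LPS+IFN-γ in diabetic BMDM were used as a score, given as the mean percentile of 200 regions that rose minus that of 200 that fell. The LPS+IFN-γ control replicate 5 scored −40.0 while the other 5 scored 7.68 to 34.6, and unstimulated control replicates 5 and 6 scored 11.8 and 5.58 while the other 4 scored −40.7 to −18.2. No sample was moved, and for the main results that rest on control BMDM a value without these 3 libraries is given. The score is built on the response to LPS+IFN-γ, so leaving these libraries out favours calls in that comparison. For H3K4me3, 0 regions were called in a fit of diabetic BMDM alone, so the score used uncalled regions. The LPS+IFN-γ control replicate 5 scored −18.6 (others −13.9 to 11.8), and unstimulated control replicates 5 and 6 scored −2.32 and −1.75 (others −24.7 to −4.05). The H3K4me3 libraries of the same numbers were left out with them.

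The first question was where these genes stand among all promoters. A promoter interval was listed for all 8 genes in 35 of 35 H3K27ac libraries, so the question is one of rank. Ifnar2, the signalling chain that carries Jak1 at the type I receptor, stood highest in the mean of each cell state, with a median percentile of 96.9 over all libraries and a range of 80.1 to 99.99. Jak1, the kinase shared by both receptors, had a median of 93.2 (56.5 to 98.9). Ifngr1 followed at 91.2 (71.5 to 99.4), Ifnar1 at 87.9 (60.4 to 99.6), Ifngr2 at 85.4 (57.1 to 99.9) and Jak2 at 82.2 (52.1 to 97.0). Jak3, the lymphoid kinase, lay lower at 60.4 (37.1 to 74.9), and Tyk2 lowest at 38.7 (22.5 to 63.0). Tyk2 was among the 10000 strongest intervals in 6 of 35 libraries, against 33 to 35 for the other 7 genes.

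Within a state, most neighbours in this order were not separated. In HSC, Ifnar2 was above Jak1 in 8 of 12 libraries, with a mean difference of 1.46 ± 7.71 percentile points (SD), and Ifnar1, Jak2 and Ifngr1 differed by 1.11 points or less between neighbours. Ifngr2 was above Jak3 in 12 of 12 HSC libraries, by 16.0 ± 9.07 points, and Jak3 above Tyk2 in 12 of 12, by 20.6 ± 13.4 points. In unstimulated BMDM Jak3 was above Tyk2 in 11 of 11 libraries (21.3 ± 8.29 points). The summit of the strongest H3K27ac promoter interval lay a median of 78 to 207 bp downstream of the nearest start site in 6 genes, 10 bp downstream in Jak3 and 31 bp in Tyk2.

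**Figure D1:**
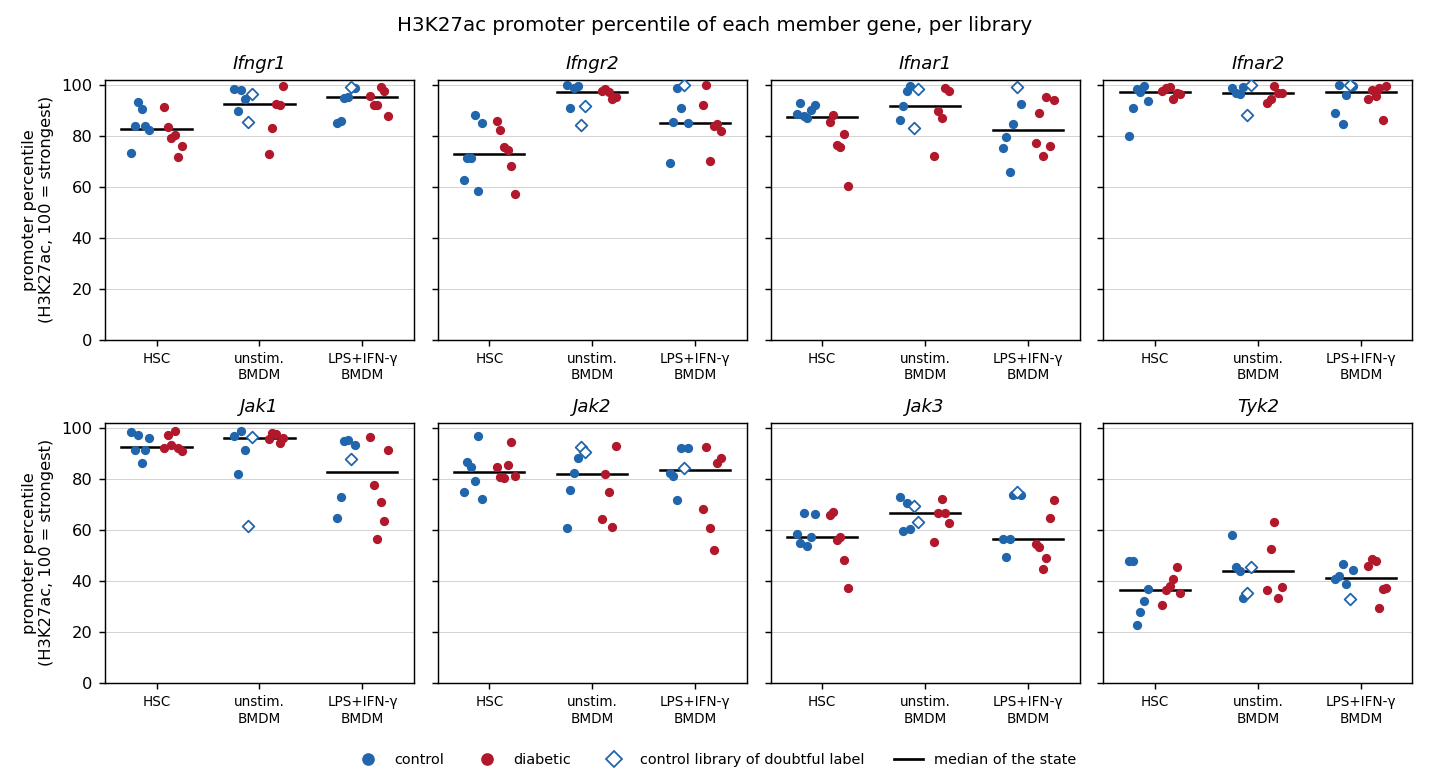
H3K27ac promoter percentile (y axis, 100 is strongest) of the 8 genes in every library, by cell state (x axis) and disease (colour), with black lines at the median of a state and open diamonds for the 3 control libraries of doubtful label. Ifngr2 is higher in unstimulated BMDM (84.3 to 99.8) than in nearly all HSC libraries (57.1 to 88.1), while Tyk2 lies lowest in each state.

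The second question was how the genes differ between progenitors and macrophages. Unstimulated BMDM were compared with HSC, disease groups pooled, by limma across 16981 promoters with Benjamini-Hochberg adjustment. Ifngr2, the accessory chain of the IFN-γ receptor, rose from a lowest, median and highest percentile of 57.1, 72.8 and 88.1 in 12 HSC libraries to 84.3, 97.1 and 99.8 in 11 unstimulated BMDM libraries. 10 of the 11 BMDM libraries lay above all HSC libraries, the exception being control replicate 5, one of the 3 of doubtful label. The difference was 22.0 ± 3.66 points (SE, adjusted p = 7.8e-06), and 23.6 ± 3.84 without the 3 doubtful libraries (adjusted p = 8.1e-06). It was 21.4 ± 5.06 in control and 22.6 ± 5.30 in diabetic mice alone.

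Ifngr1, the chain that binds IFN-γ, rose by less. Its values were 71.5, 82.7 and 93.2 in HSC and 72.8, 92.4 and 99.4 in unstimulated BMDM, groups that overlap. 10 of 11 BMDM libraries lay above the HSC median. The difference was 8.46 ± 2.77 points (adjusted p = 0.0163, and 0.0154 without the doubtful libraries). It did not pass the threshold when intervals were ranked by fold enrichment (adjusted p = 0.408), or in control (0.0913) or diabetic mice (0.197) alone.

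The other 6 genes did not pass this test at H3K27ac promoters. Ifnar2 and Jak1 already had mean percentiles of 95.2 and 93.8 in HSC, which left little room to rise on this scale. Jak3 differed by 7.99 ± 3.86 points (adjusted p = 0.108), Tyk2 by 7.38 ± 3.60 (0.112) and Ifnar1 by 7.12 ± 3.57 (0.123), each with BMDM higher. Intervals of ± 2 SE ran from −3.23 to 5.35 points for Ifnar2, from −9.64 to 6.20 for Jak1 and from −13.7 to 3.41 for Jak2. So 2 of 8 genes rose and 0 fell, where 15.6% of all promoters rose and 16.3% fell. When only the 10000 strongest intervals of a list were ranked, 6761 promoters rose and 2170 fell. That setting ties every promoter without such an interval at the bottom by construction, so its counts do not show how many promoters gained or lost the mark. The median difference of the 8 genes was 7.25 points against −0.29 over all promoters. 0 of 8 genes had groups that did not overlap, against 2.75% of promoters.

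The remainder of the pathway was read from lists of named genes. Of 29 other receptor chains that use Jak kinases, 11 rose and 4 fell in unstimulated BMDM, where 15.6% of all promoters rose and 16.3% fell. The shares of inhibitors and transducers that were called, given below, were near those of all promoters. The largest rises were in Il6st, the shared gp130 chain (25.6 ± 3.69 points), the IL-21 receptor Il21r (24.9 ± 3.95) and the IL-6 receptor Il6ra (24.7 ± 4.53), and the falls included the IL-2 receptor chain Il2rb (−14.8 ± 2.83) and the erythropoietin receptor Epor (−13.8 ± 3.44). Of 16 inhibitors, Socs3 (21.2 ± 5.12) and Socs1 (15.2 ± 3.56), which act on Jak kinases, rose, and the phosphatase gene Ptpn11 (−16.1 ± 3.82), Cish (−16.1 ± 3.86) and Pias2 (−9.51 ± 3.32) fell. Of 12 transducers, Irf8 (18.2 ± 3.23) and Irf1 (16.5 ± 5.01) rose and Stat4 (−19.4 ± 4.05) and Irf7 (−15.0 ± 5.08) fell. Without the 3 doubtful libraries each gene named here still passed in the same direction. Of 3 interferon genes that could be tested, 0 passed (limma, with 1 at an unadjusted p under 0.05). The H3K27ac patterns over the 6 group means that were closest to Ifngr2 were those of Krt75 (Pearson r = 0.999), P3h3 (0.998) and Mthfsd (0.998), a description over 6 points in which 539 promoters passed r of 0.95.

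The third question was where in the loci the mark differed. 48 H3K27ac regions lay in the 8 loci, with 4 in Ifngr1, 7 in Ifngr2, 4 in Ifnar1, 9 in Ifnar2, 6 in Jak1, 1 in Jak2, 9 in Jak3 and 8 in Tyk2. Between HSC and unstimulated BMDM 13 rose and 7 fell, shares near those of all regions (22.6% rose and 22.5% fell of 44131). With only the 10000 strongest intervals ranked, 25686 regions rose and 2661 fell. That setting ties every region without such an interval at the bottom by construction, so its counts do not show how many regions gained or lost the mark. By place, 17 regions lay within 1 kb of any gene's start. Of these, 7 rose and 0 fell, where 17.3% of all such regions rose and 23.1% fell. Only those in Ifngr1 and Ifngr2 rose at a start of a member gene. The others that rose lay at starts of the neighbours Il10rb, Insl3 and B3gnt3. Of the 31 farther from a start 6 rose and 7 fell, where 26.0% of all such regions rose and 22.2% fell. These 31 were 14 intronic regions (5 rose and 2 fell), 8 exonic (1 and 1) and 9 intergenic (0 and 4). The places were not tested against each other. Without the 3 doubtful libraries 19 of the 20 calls held.

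The Ifngr1 locus was split in direction. Its promoter region rose by 2.73 ± 1.06 points, while the other 3 regions fell. The region 3′ of the gene, chr10:19612941-19613782, had a lowest, median and highest percentile of 8.22, 63.7 and 79.6 in HSC, 6.01, 10.5 and 28.7 in unstimulated BMDM and 2.72, 8.60 and 42.5 with LPS+IFN-γ. Only diabetic HSC replicate 5, at 8.22, lay within the range of unstimulated BMDM. An interval was listed there in 11 of 12 HSC, 3 of 11 unstimulated and 2 of 12 LPS+IFN-γ libraries, and the difference was −44.5 ± 6.12 points (adjusted p = 5.7e-08), the largest in these loci. The region 7.63 kb upstream of the gene start, chr10:19584050-19584843, was listed in 12, 4 and 4 libraries, with medians of 51.8, 16.1 and 12.5 (−34.4 ± 6.48 points, adjusted p = 2.2e-05). The intronic region chr10:19593824-19594719 was listed in 11, 2 and 4 libraries, with medians of 48.7, 12.9 and 12.7 (−31.5 ± 6.20 points, adjusted p = 4.3e-05). In BMDM the Ifngr1 promoter was therefore high while these 3 regions were listed in few libraries.

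The Ifngr2 locus moved in the other direction. 4 of its 7 regions rose and 0 fell. The intronic region chr16:91550949-91557062 went from 17.1, 38.1 and 71.2 in HSC to 62.8, 69.2 and 77.0 in unstimulated BMDM and 60.3, 74.9 and 88.0 with LPS+IFN-γ (26.6 ± 5.43 points, adjusted p = 7.3e-05). 3 HSC libraries reached the range of unstimulated BMDM. The promoter region rose by 7.62 ± 1.41 points, chr16:91549829-91550688 by 23.4 ± 6.57 and chr16:91560967-91563867, near an internal start site 14.3 kb into the gene, by 21.7 ± 4.63. The Ifnar2 locus was also split. The region 5.87 kb upstream of Ifnar2, chr16:91365065-91368092, fell from a median of 59.9 to 19.7 (−31.0 ± 7.01 points, adjusted p = 0.0003), while an intronic region, chr16:91395659-91398005, rose by 22.6 ± 5.32 points. This intronic region also lies in the body of Gm21970, a gene that overlaps Ifnar2. The nearest start is that of Gm21970, 5987 bp from its summit, so it cannot be given to Ifnar2 alone. The regions chr16:91403622-91405223, in the 3′ end of Ifnar2, and chr16:91405600-91409434 rose by 21.6 ± 6.36 and 4.34 ± 0.96 points, and both lie within 1 kb of a start of the neighbour Il10rb, an IL-10 receptor chain, so they cannot be given to Ifnar2. In Ifnar1 0 of 4 regions passed (limma, 0 at an unadjusted p under 0.05).

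**Figure D2:**
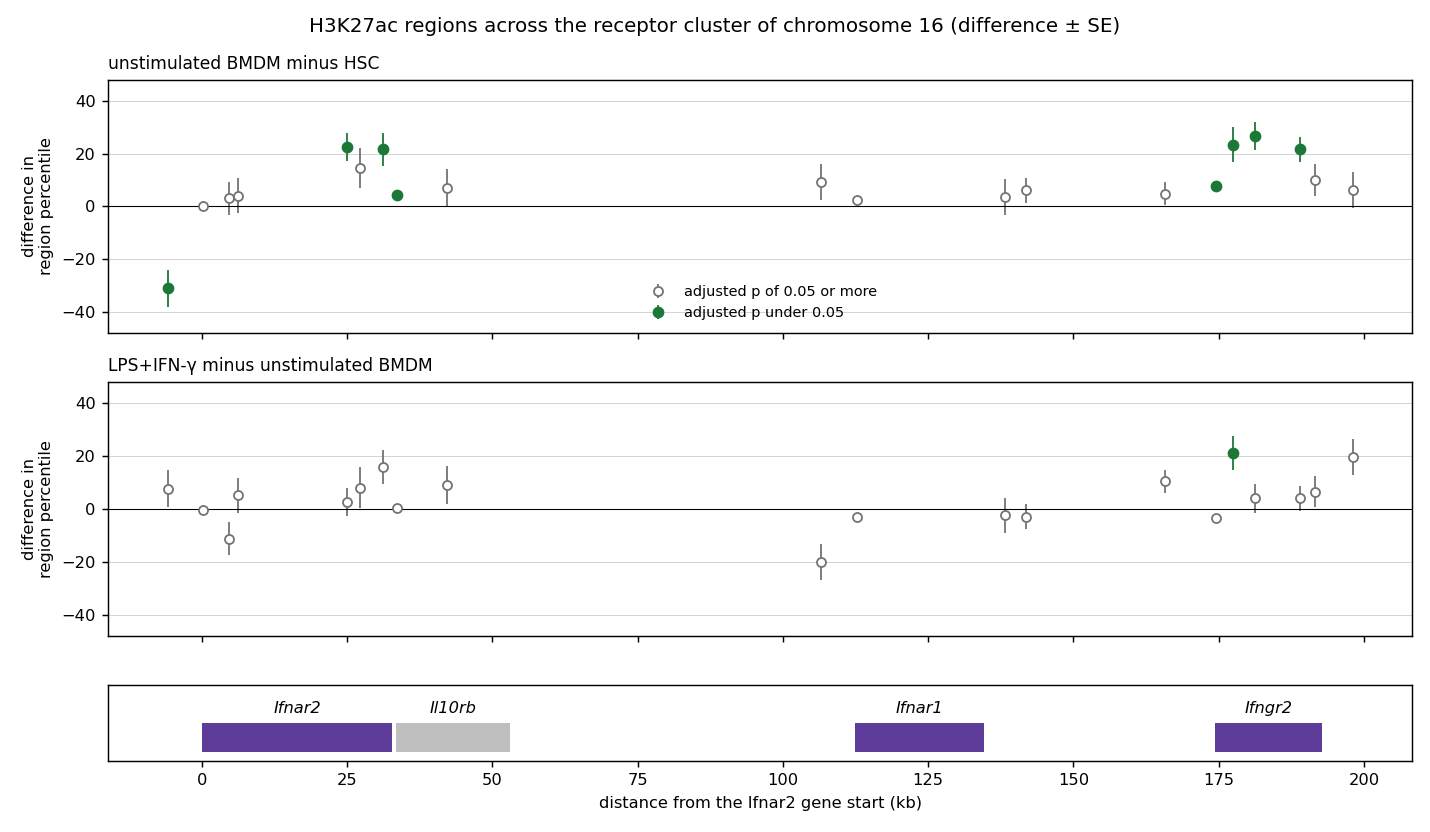
Difference in H3K27ac region percentile (y axis, ± SE) across the chromosome 16 loci of Ifnar2, Ifnar1 and Ifngr2, by distance from the Ifnar2 start (x axis, kb), for unstimulated BMDM minus HSC (top) and LPS+IFN-γ minus unstimulated BMDM (middle), with the genes as bars (bottom). Filled points have an adjusted p under 0.05. The Ifngr2 locus holds 4 filled points above 0 in the top panel and 1 in the middle panel, the latter not called with the replicate block or without the 3 doubtful libraries.

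Among the kinases, 2 Jak1 regions fell in BMDM, and in the Jak3 locus an intronic region rose. The intronic Jak1 region chr4:101182418-101183120 had percentiles of 11.6, 55.3 and 71.5 in HSC and 6.01, 13.2 and 59.3 in unstimulated BMDM (−31.6 ± 6.52 points, adjusted p = 8.9e-05), and was listed in 11 of 12 and 3 of 11 libraries. An exonic Jak1 region, chr4:101191144-101191728, went from a median of 50.0 to 18.1 (−28.9 ± 6.39 points). In Jak3, an intronic region, chr8:71685517-71687520, rose from 6.74, 11.1 and 37.7 to 14.8, 44.8 and 66.1 (26.9 ± 6.28 points, adjusted p = 0.0004), and was listed in 3 of 12 HSC and 11 of 11 unstimulated BMDM libraries. This intronic region lies nearer to the start of Insl3, 2549 bp from its summit, than to one of Jak3. It cannot be given to Jak3 alone. Insl3 is a gene that overlaps the Jak3 locus. The region chr8:71688718-71689585, at the start of Insl3, rose by 28.1 ± 6.81 points and cannot be given to Jak3. The same holds for chr8:71699795-71703685, at the start of the neighbour B3gnt3 (9.14 ± 3.27 points). In the Tyk2 locus the region 3′ of the gene, chr9:21099997-21101085, fell by 24.6 ± 6.49 points, and an intronic and an exonic region rose by 20.5 ± 6.29 and 18.0 ± 7.09. The nearest start to the 3′ region is that of Raver1, 8701 bp from its summit, so it cannot be given to Tyk2 alone. The exonic region, chr9:21115205-21116763, did not pass without the 3 doubtful libraries (15.2 ± 7.42, adjusted p = 0.0920). Jak2 had 1 region, its promoter, which did not pass.

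**Figure D3:**
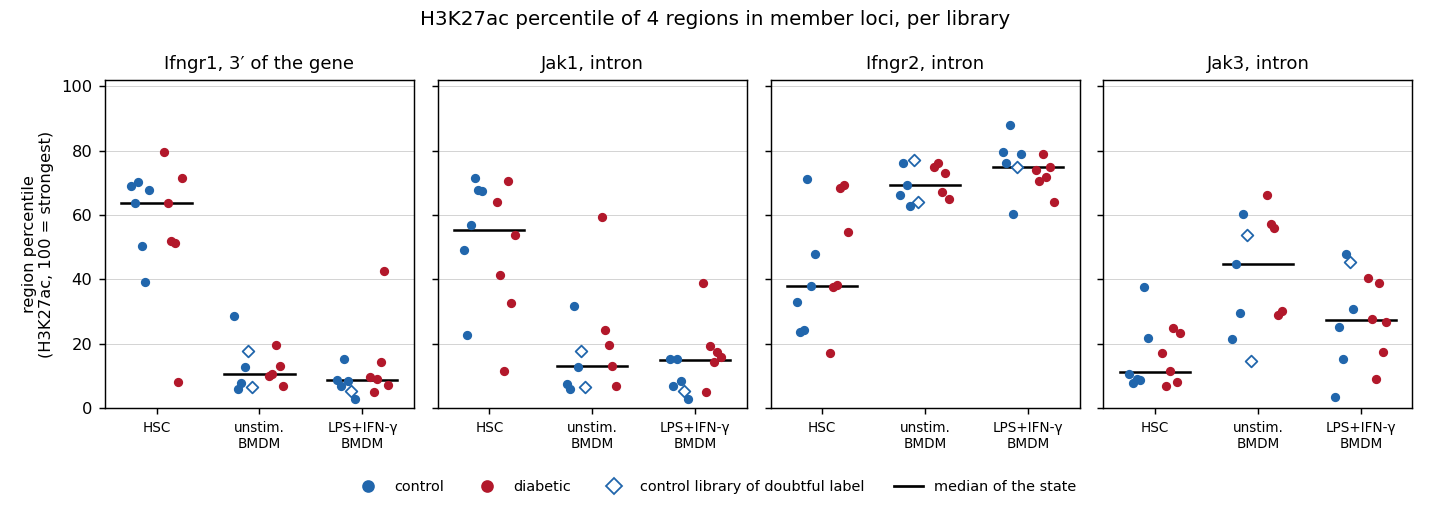
H3K27ac region percentile (y axis) in every library for 4 regions, by cell state and disease, with black lines at the median of a state. The Ifngr1 and Jak1 regions are high in HSC (medians 63.7 and 55.3), and the Ifngr2 and Jak3 regions are higher in unstimulated BMDM (medians 69.2 and 44.8). The Jak3 region lies nearer to the start of Insl3 than to one of Jak3.

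A further count, chosen after the data were seen, took all intervals in a locus, strong or weak, per 100000 intervals of the list. In Jak1, 12 HSC libraries held 22.6 to 45.0 (median 25.0) and 11 unstimulated BMDM libraries 5.51 to 15.1 (median 8.29), so the groups did not overlap. Of all loci, 2% were lower in BMDM with no overlap. Unscaled, these were 21 to 39 intervals (median 30.5) in HSC and 3 to 25 (median 8) in BMDM, and they covered 7.82 to 17.9 kb (median 12.7) and 1.39 to 11.4 kb (median 3.81) of the 132.9 kb locus. A median of 1 interval per HSC library was among its 10000 strongest, so most of these were weak. The log2 difference, with 1 added, was −1.50 ± 0.18 (limma, adjusted p = 1.3e-08), a 2.83-fold lower number in BMDM, and −1.37 ± 0.18 without the doubtful libraries. LPS+IFN-γ BMDM held 3.81 to 14.1 (median 10.0).

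Ifngr1 also held fewer intervals in BMDM, with 4.84 to 16.0 (median 9.02) in HSC and 2.39 to 8.61 (median 4.30) in unstimulated BMDM, a log2 difference of −0.96 ± 0.18 (adjusted p = 4.5e-05). Ifngr2 held more, with 7.63 to 12.6 (median 10.3) and 9.66 to 29.4 (median 13.7), a difference of 0.50 ± 0.14 (adjusted p = 0.0036), and 0.42 ± 0.13 without the doubtful libraries (adjusted p = 0.0114). 7 of 11 BMDM libraries lay above all HSC libraries. Jak3 differed by 0.43 ± 0.17 (adjusted p = 0.0439), a call lost without the doubtful libraries (adjusted p = 0.105). The Jak3 locus also takes in the starts of Unc13a, Insl3 and B3gnt3. So 2 of 8 loci rose (Ifngr2 and Jak3) and 2 fell (Jak1 and Ifngr1), where 19.8% of 19350 loci rose and 15% fell. The log2 differences of Ifnar1, Ifnar2, Jak2 and Tyk2 were between −0.29 and −0.04.

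**Figure D4:**
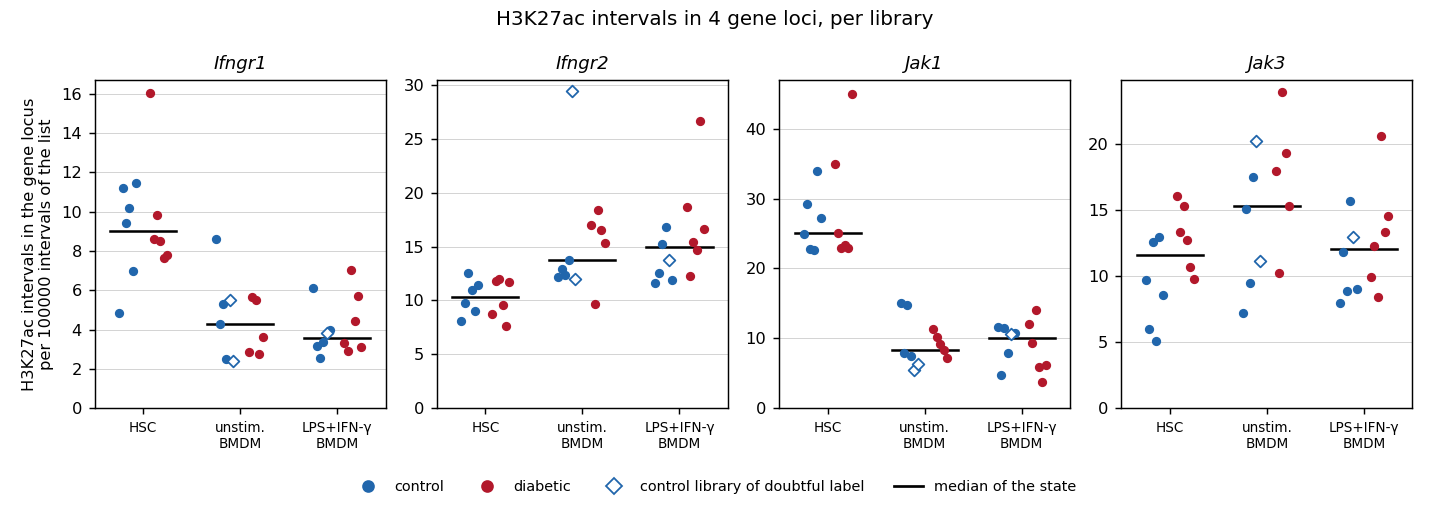
H3K27ac intervals in the loci of Ifngr1, Ifngr2, Jak1 and Jak3 per 100000 intervals of the list (y axis, from 0 and scaled per gene), for every library by cell state and disease, with black lines at the median of a state. All 11 unstimulated BMDM libraries lie below all 12 HSC libraries in Jak1.

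The same comparisons were made for H3K4me3, and the marks were not tested against each other. By H3K4me3, Ifngr2 (median 88.7 over 35 libraries, 55.9 to 99.4), Ifnar2 (88.1), Jak2 (81.2) and Jak1 (80.4) stood highest, then Ifnar1 (70.7), Jak3 (64.4), Ifngr1 (58.4) and Tyk2 (32.6). Promoter intervals were listed in 33 to 35 of 35 libraries. Between HSC and unstimulated BMDM 0 of 8 genes passed (limma, 3 at an unadjusted p under 0.05), where 7.55% of 17255 promoters rose and 9.11% fell. The lists of this mark differed in length with the state: the median was 49624 intervals in control HSC and 161118 in control unstimulated BMDM, and 89111 and 96580 in diabetic mice. With list length as a covariate 228 promoters rose and 260 fell, and without the filter on 5 libraries 2167 rose and 5560 fell. Ifnar2 differed by −14.3 ± 5.94 points (adjusted p = 0.0859), Jak2 by −14.2 ± 6.21 (0.101) and Tyk2 by 13.4 ± 6.05 (0.114). For Ifngr2 the difference was 3.46 ± 5.55, with an interval of ± 2 SE from −7.65 to 14.6, and for Ifngr1 −3.83 ± 8.23, with an interval from −20.3 to 12.6. Libraries of a state spread widely in this mark, as in Ifngr1, which ran from 20.2 to 92.5 in HSC.

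**Figure D5:**
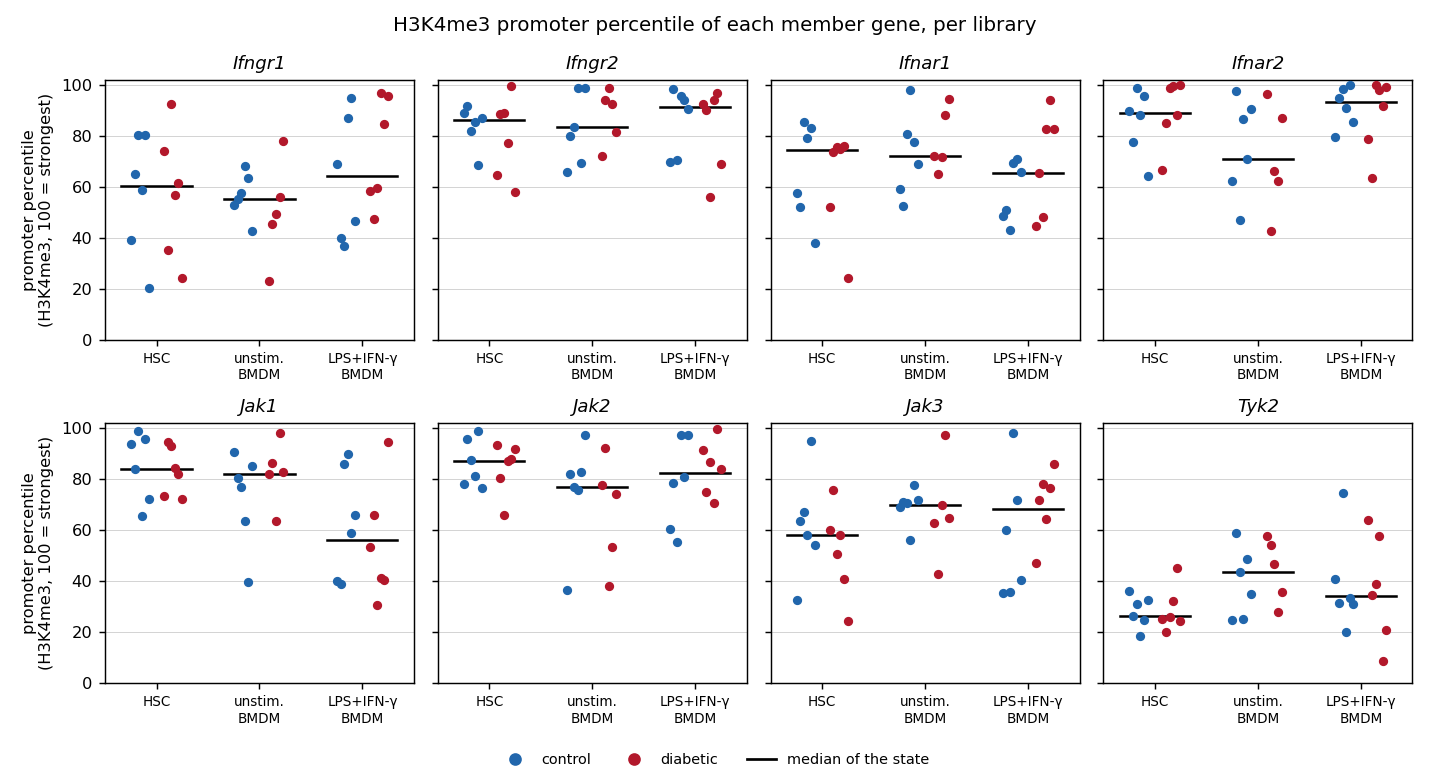
H3K4me3 promoter percentile (y axis, 100 is strongest) of the 8 genes in every library, by cell state (x axis) and disease (colour), with black lines at the median of a state. Groups overlap in each gene, and Tyk2 has the lowest median (32.6 over all libraries).

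Of 28 H3K4me3 regions in the loci, 2 rose in BMDM and 0 fell, against 5.46% and 4.38% of 44799 regions. The Ifngr2 region chr16:91561119-91562128 lies at the internal start site near which H3K27ac also rose. It went from 14.3, 47.7 and 80.5 in HSC to 48.4, 75.3 and 92.5 in unstimulated BMDM (32.2 ± 7.06 points, adjusted p = 0.0018). The other is at the start of Unc13a, a neighbour of Jak3 (15.2 ± 3.59 points). By interval number, Tyk2 (log2 difference 0.91 ± 0.24, adjusted p = 0.0066) and Ifnar1 (0.55 ± 0.21, adjusted p = 0.0488) rose and 0 fell, against 11.9% and 12.9% of 20300 loci. With list length as a covariate neither passed (adjusted p = 0.350 and 0.913), and of all loci 686 rose and 381 fell. Among pathway genes, Cish (29.5 ± 7.62 points), Ptprc (15.1 ± 4.05) and Usp18 (13.8 ± 4.84) of 16 inhibitors rose in this mark, as did Il3ra (30.9 ± 5.68), Csf2ra (27.7 ± 6.29) and Crlf2 (24.8 ± 7.41) of 28 receptor chains, while Lepr (−21.8 ± 6.84) and Irf2 (−16.3 ± 5.86) fell. Of all promoters 7.55% rose and 9.11% fell in this mark. With list length as a covariate only Il3ra (adjusted p = 0.0018) and Csf2ra (0.0223) of these 8 pathway genes passed. Without the doubtful libraries Crlf2, Lepr and Irf2 did not pass (adjusted p = 0.0745, 0.0527 and 0.0858).

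The fourth question was whether LPS+IFN-γ, of which IFN-γ acts through Ifngr1 and Ifngr2, altered the mark at these genes. 0 of 8 promoters passed for H3K27ac (limma, 3 at an unadjusted p under 0.05), where 1.35% of promoters rose and 1.4% fell. The 3 were Jak1, Ifngr2 and Ifnar1, each lower with LPS+IFN-γ. Jak1 went from 61.4, 95.9 and 98.9 in unstimulated BMDM to 56.5, 82.8 and 96.4 with LPS+IFN-γ, and 1 of 12 stimulated libraries lay above the unstimulated median. The difference was −11.6 ± 3.96 points (adjusted p = 0.0994). Without the 3 doubtful libraries it was −14.1 ± 3.89 and passed (adjusted p = 0.0197), where 3.48% of promoters rose and 3.93% fell. Those libraries were set aside by their score in this same response, so that fit favours calls and is not separate support. Over all promoters the calls went from 466 to 1258. The lowest unstimulated value, 61.4, was control replicate 5, one of the doubtful libraries.

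By disease, the Jak1 difference with LPS+IFN-γ was −20.3 ± 5.73 points in diabetic mice (adjusted p = 0.0421), where 1.18% of promoters rose and 1.44% fell. In control mice, which hold the doubtful libraries, it was −2.88 ± 5.46 (adjusted p = 0.995) and 0 promoters were called. Without those 3 libraries it was −7.96 ± 5.78 in control mice (adjusted p = 0.653), where 0.218% of promoters rose and 0.289% fell. Unstimulated diabetic libraries stood at 95.5, 98.2, 97.7, 94.2 and 95.9, and stimulated ones at 96.4, 77.6, 56.5, 70.8, 63.4 and 91.3. 5 of these 6 lay below all 5 unstimulated libraries. The difference between the disease groups was −17.4 ± 7.92 points and did not pass (adjusted p = 0.762), and −12.4 ± 7.79 without the doubtful libraries (adjusted p = 0.951). Ifngr2 differed by −8.53 ± 3.66 points with LPS+IFN-γ (adjusted p = 0.202) and Ifnar1 by −7.52 ± 3.57 (adjusted p = 0.256). Without the doubtful libraries these were −11.3 ± 3.92 (adjusted p = 0.0700) and −9.67 ± 3.72 (adjusted p = 0.104). Intervals of ± 2 SE were −2.78 to 8.30 for Ifngr1, −5.42 to 3.16 for Ifnar2, −7.55 to 9.62 for Jak2, −12.8 to 2.64 for Jak3 and −10.4 to 3.98 for Tyk2. No promoter of the 8 had groups without overlap, and of all promoters 0% had.

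Of the 48 H3K27ac regions, 1 rose with LPS+IFN-γ and 0 fell, against 3.22% and 1.84% of all regions. It was the Ifngr2 intronic region chr16:91549829-91550688, which ran from 20.7, 54.9 and 78.9 to 57.9, 77.0 and 99.9 (21.2 ± 6.57 points, adjusted p = 0.0460). It did not pass with the replicate block (20.0 ± 6.59, adjusted p = 0.0746). Without the doubtful libraries it did not pass (20.2 ± 7.03, adjusted p = 0.0567), and 4 others did, where 5.72% of all regions rose and 4.18% fell. These were a region 3′ of Ifngr2, chr16:91570368-91571246 (28.3 ± 6.66, adjusted p = 0.0034), the 3′ end of Ifnar2, chr16:91403622-91405223 (21.7 ± 6.55), the Jak1 promoter, chr4:101264220-101265848 (−5.75 ± 1.63), and a region upstream of Ifnar1, chr16:91479038-91479689 (−24.8 ± 7.03). The region at the 3′ end of Ifnar2 lies within 1 kb of a start of Il10rb, so it cannot be given to Ifnar2. The doubtful libraries were set aside by their score in this same response, which favours such calls. By interval number 0 of 8 loci passed (limma, 0 at an unadjusted p under 0.05), against 0.636% of loci that rose and 0.336% that fell. Of the pathway lists Socs1, an inhibitor induced by interferon (14.0 ± 3.56 points), and Il15ra (18.6 ± 4.95) rose. Over all promoters 1.35% rose and 1.4% fell.

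For H3K4me3, 0 of 8 promoters passed with LPS+IFN-γ (limma, 2 at an unadjusted p under 0.05), where 0% of all promoters did. Jak1 had 39.6, 82.1 and 97.9 in unstimulated and 30.3, 56.0 and 94.4 in stimulated BMDM, a difference of −18.9 ± 6.91 points (adjusted p = 0.722). Ifnar2 had 42.6, 70.9 and 97.7 and then 63.3, 93.3 and 99.8, a difference of 16.6 ± 5.94 (adjusted p = 0.697). 0 of 28 regions passed (limma, 4 at an unadjusted p under 0.05), against 0.00223% of all regions, and 0 of 8 loci (1 at an unadjusted p under 0.05), against 0%.

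The last question was whether diabetes altered the marks at these genes. No promoter of the 8 passed in any of the 3 cell states for either mark (limma, with 1 gene at an unadjusted p under 0.05 in H3K27ac and 0 in H3K4me3), where 0% of all promoters passed. The gene was Ifnar1 in HSC, with H3K27ac percentiles of 88.4, 92.9, 87.9, 86.9, 89.9 and 92.2 in control and 85.4, 88.3, 76.6, 75.7, 80.8 and 60.4 in diabetic libraries. 5 of 6 diabetic libraries lay below all controls. The difference was −11.8 ± 4.93 points (limma, adjusted p = 0.9997). The other 7 genes differed by −4.35 to 3.94 points in HSC. In unstimulated BMDM the 8 H3K27ac differences ran from −6.57 (Jak2) to 8.50 (Jak1), and with LPS+IFN-γ from −9.29 (Jak2) to 1.01 (Ifnar1). Without the doubtful libraries they ran from −7.19 (Ifngr1) to 4.04 (Jak1) and from −9.20 (Jak2) to 4.23 (Ifnar1). For H3K4me3 they ran from −10.2 to 3.92 in HSC, −8.23 to 9.82 in unstimulated BMDM and −8.91 to 13.8 with LPS+IFN-γ.

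Of the 48 H3K27ac regions 0 passed between diabetic and control mice in HSC, unstimulated BMDM or LPS+IFN-γ BMDM (limma, 4, 5 and 1 at an unadjusted p under 0.05), against 0%, 0.00227% and 0% of all regions. The smallest unadjusted p values belonged to regions of the Tyk2 locus: chr9:21099997-21101085, the region 3′ of the gene, in HSC (−24.4 ± 8.95 points) and the intronic chr9:21123446-21125496 in unstimulated BMDM (−26.5 ± 9.11 points). Of the 28 H3K4me3 regions 0 passed (0 at an unadjusted p under 0.05 in each state), against 0.00223%, 0% and 0%. By interval number 0 of 8 loci passed in either mark, against 0.00985% of H3K4me3 loci higher and 0.00985% lower in HSC and 0% elsewhere (limma, with 1, 0 and 0 loci at an unadjusted p under 0.05 for H3K27ac and 2, 1 and 0 for H3K4me3). With about 6 libraries per group, the SE of a disease difference at these promoters was 2.96 to 6.21 points for H3K27ac and 7.67 to 11.9 for H3K4me3.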

How the data were processed

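H3K27ac and H3K4me3 ChIP-seq was read in 70 libraries, 35 per mark. 36 input samples of the 106 were not used. The authors sequenced 50 bp single reads per the labels. The submitters' processing notes name GRCm38, Trim Galore 0.3.3, cutadapt 1.8, FastQC 0.11.3, Bowtie2 2.2.6, Picard 2.18.14 and 2.19.2, bedtools 2.19.1 and MACS2 2.2.7.1, with settings not given in the sources used here. The deposited lists hold, for each interval, a score, a fold enrichment (a ratio over background), a −log10 p and a −log10 q made by the authors' peak caller for each library. The score is 10 times the −log10 q and was not used further.

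Intervals with several summits were counted as 1. Each protein-coding gene of GENCODE M21 was ranked within its library by the highest −log10 p within 1 kb of any start site, as a percentile among genes with an interval in 5 or more libraries. Regions merged the 30000 strongest intervals of each list and were kept when held in 5 or more libraries. Locus counts took all intervals in the gene body with 10 kb on each side, as log2(1 + intervals per 100000 of the list). limma 3.58.1 (R 4.3.3) was fitted with a mean-variance trend over 6 groups per mark, with Benjamini-Hochberg adjustment over all promoters, regions or loci and a threshold of 0.05. All ± values beside differences are standard errors unless named SD. Python 3.11.15, pandas 2.3.3 and numpy 2.4.6 were used, and the fit was tested on simulated data. Ranks discard absolute enrichment, so a change shared by all genes cannot be seen.

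Replicates are separate mice per the study's methods, and p-values measure the spread between these samples. The genes and lists were chosen with earlier results of these data known. In each comparison all 8 genes were to be named, with the 10 largest called regions and the 3 largest called pathway genes per direction. 1 pathway gene that the rule names is not reported here. The other called regions that are named, the locus counts and the check of the library labels were chosen after the data were seen. Promoter sequences came from RefSeq (GRCm38.p6).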

Additional observations from a re-analysis of the deposited data

Results flagged for a closer look

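Of 192 groups of 5 or 6 libraries (8 genes, both marks, promoter percentile and locus intervals), 9 held a library far from the others by Dixon's test, where chance gives about 1 in 20. At promoters, H3K27ac of Ifnar2 in control unstimulated BMDM replicate 5, a library of doubtful label, was 88.3 against 96.4 to 99.9 in the others. H3K27ac of Jak2 in diabetic HSC replicate 5 was 94.6 against 80.5 to 85.5. H3K4me3 of Jak2 in control unstimulated BMDM replicate 1 was 36.4 against 75.7 to 97.4.

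By intervals per 100000 of the list, the H3K27ac count of Ifngr1 in diabetic HSC replicate 1 was 16.0 against 7.63 to 9.85. That of Ifngr2 in control unstimulated BMDM replicate 5, the same library of doubtful label, was 29.4 against 11.9 to 13.7. For H3K4me3, Ifnar2 stood at 14.6 in diabetic HSC replicate 6 (others 3.14 to 6.04) and at 4.28 in diabetic LPS+IFN-γ BMDM replicate 6 (others 6.76 to 8.20). Ifngr1 stood at 3.18 in diabetic LPS+IFN-γ BMDM replicate 1 (others 1.76 to 2.28) and Ifngr2 at 4.83 in diabetic HSC replicate 3 (others 7.28 to 8.38). No cause was tested.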

How the results depend on the processing

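Of 743 counts of called members recomputed under an alternative, 680 stayed within 1.5 times, and of 4702 single differences 4277 kept their direction and side of the threshold, 125 lost it, 11 gained it and 283 changed sign while called in neither. 6 regions that fell in BMDM came out at 0.246 when only the 10000 strongest intervals were ranked, which by construction ties them at the bottom: 2 of Jak1, 2 of Ifngr1 and 1 each of Ifnar2 and Tyk2.

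Called H3K27ac promoters between HSC and BMDM went from 2 to 1 by fold ranking, in control mice only (also without the doubtful libraries) and in diabetic mice only, and with LPS+IFN-γ from 0 to 1 without the 3 doubtful libraries and in diabetic mice only. H3K27ac regions between states went from 20 to 11 in diabetic mice only and 12 in control mice only without the doubtful libraries, a setting added after the data were seen. With LPS+IFN-γ they went from 1 to 2 with the 20000 highest intervals or normal scores, 0 with the 10000 strongest, the replicate block or control mice only (with or without the doubtful libraries), 4 without the doubtful libraries and 3 in diabetic mice only. H3K4me3 regions between states went from 2 to 1 (10000 strongest, control mice only) and 0 (diabetic mice only, or control mice only without the doubtful libraries). Loci went from 4 to 2 for H3K27ac in either disease group alone. For H3K4me3 they went from 2 to 1 (only the groups compared, without the doubtful libraries, without 4 libraries of unclear scaling) and 0 (list length covariate, control or diabetic mice only), and diabetes in HSC from 0 to 1 (list length covariate). The causes were not tested. The 4 libraries, named by earlier work on these data whose check was not repeated here, are H3K4me3 of LPS+IFN-γ control replicate 6, LPS+IFN-γ diabetic replicates 1 and 2 and unstimulated control replicate 6.

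Leaving out 1 library gave 1 to 3 H3K27ac promoters between states (Ifngr1 was lost without diabetic unstimulated BMDM replicate 6, at 7.03 points), 0 to 1 with LPS+IFN-γ, 0 to 3 H3K27ac regions with LPS+IFN-γ (3 without control LPS+IFN-γ replicate 5), 0 to 1 H3K4me3 promoters between states and 1 to 3 H3K4me3 loci between states.

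Over all features, calls between states ranged from 2358 to 8931 (5410 as reported) for H3K27ac promoters, 10822 to 28347 (19934) for regions and 3681 to 7594 (6729) for loci, and for H3K4me3 from 37 to 7727 (2875), 226 to 4852 (4409) and 235 to 5105 (5024). With LPS+IFN-γ they ranged for H3K27ac from 0 to 1258 (466), 0 to 4366 (2237) and 0 to 766 (188), and for H3K4me3 regions from 0 to 37 (1). For H3K4me3 loci between diabetic and control HSC they ranged from 0 to 172 (4). These ranges do not include the fits that left out 1 library. For H3K4me3 loci those fits gave 1 to 278 calls between diabetic and control HSC and 3907 to 5772 between states.

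Same-numbered samples of different states had correlations of −0.203 to 0.474, so the numbers were not taken to pair them. Between unstimulated and LPS+IFN-γ BMDM the median was 0.112 (control) and 0.094 (diabetic) for same-numbered against −0.022 and −0.045 for other samples in H3K27ac, and 0.050 and 0.176 against −0.009 and −0.060 in H3K4me3. With the replicate block Ifngr2 rose by 21.3 points and Ifngr1 by 8.30 in BMDM, both still called, and Jak1 fell by 10.6 with LPS+IFN-γ, not called. 0 to 3 of 5 or 6 samples correlated best with their own number. Read depth is unknown and limits what a missing interval can show.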
